A study of Mus musculus with 23 samples.

Results

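Enzymes and a binding protein that handle retinoids, together with their alcohol dehydrogenase relatives, were followed in the ears of mice before and after a hole was punched. The set holds 9 genes of the 19938 tested: the alcohol dehydrogenases Adh6b, Adh1 and Adh7, the retinol-oxidizing short-chain dehydrogenases Rdh10 and Dhrs9, the retinal dehydrogenases Aldh1a1, Aldh1a2 and Aldh1a3, and the retinoic acid binding protein Crabp2. Genes were found by their annotated symbol, and a gene with several probe sets was read from the probe set with the highest mean, apart from Adh6b, of which both probe sets were read. Adh6b was taken up because it was lower in unwounded cub ears than in unwounded wild type ears, so it was chosen by its log2 level at 0 h, and that difference is given as a description and carries no test. Its changes from 0 h use the same unwounded arrays and also carry none. Which values brought in the other 8 genes is not recorded, so their p values, adjusted over all 19938 genes, are not independent evidence for the choice.

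Expression was measured in ear pinna tissue of 4-week-old female mice on Affymetrix Mouse Gene 1.0 ST arrays, which read each gene through several short probes. The cub mice were Rhbdf2cub/cub of the strain B6.Cg-Rhbdf2cub/J (11 arrays), and the wild type mice were Rhbdf2+/+ of the strain C57BL/6J (12 arrays). Ears were sampled unwounded at 0 h and at 15 min, 2 h and 24 h after a 2-mm hole, when a 3-mm biopsy punch took the 1-mm rim of tissue around the hole. Every group had 3 arrays, each labelled a biological replicate, except cub at 15 min with 2. No hole or biopsy size was given for the 0 h tissue, so wounding and the piece of ear taken cannot be told apart in comparisons with 0 h. The genotypes come from strains kept as separate lines, so the Rhbdf2 genotype and other differences between the lines cannot be told apart. Rhbdf2 encodes iRhom2, an inactive rhomboid that guides the protease ADAM17 to the cell surface, and the cub allele alters its coding sequence. Rhbdf2 itself averaged 9.11 in cub and 8.70 in wild type ears at 0 h, and 8.32 in cub and 8.81 in wild type ears at 24 h, and whether its probes lie in the altered stretch was not examined.

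Values are log2 RMA levels, a background-corrected and quantile-normalized scale on which a step of 1 is a doubling, and levels of different genes are not comparable on it because probes differ. Array medians over all rows lay between 6.37 and 6.46, and arrays of a group correlated at 0.9956 to 0.9985 over the tested genes. As a rough check of the labelled tissue, the probe sets of the keratinocyte genes Krt5, Krt14 and Krt10, the dermal Col1a1, the muscle Acta1 and the sebaceous Scd1 stood between the 98.5 and 100 percentile of all genes by mean signal. The cartilage collagen Col2a1 stood at percentile 54.7 and the hair follicle protein Tchh at 49.5, and since probes differ these places give no proportions of cells. In such bulk tissue, fewer cells of a type and less RNA per cell cannot be told apart.

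Vitamin A reaches skin as retinol and retinyl esters. Retinol is oxidized to retinal, a reversible step catalysed in cells by short-chain dehydrogenases such as RDH10 and, in solution, by several alcohol dehydrogenases. Retinal dehydrogenases of the ALDH1A group then oxidize retinal irreversibly to retinoic acid, which CRABP2 carries to the nuclear receptors RAR and RXR and which CYP26 enzymes break down. In epidermis retinoic acid restrains terminal differentiation and acts on sebaceous glands and hair follicles. Alcohol dehydrogenases also clear ethanol, aldehydes from lipid peroxidation and other small alcohols, so their level is not a measure of retinoid turnover alone.

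Promoters of the 3 genes whose levels fell at 24 h and of Dhrs9, whose level rose most, are printed to place these genes for the results that follow. RefSeq start sites on GRCm38.p6 gave promoters for 5 of the 9 genes, from 250 bases before to 50 bases after the start, and all lie on the plus strand. Capitals mark the matches to 3 motifs that were searched on both strands: AGGTCA, the half-site bound by nuclear receptors, TGACNNNGC, the core of the antioxidant response element, and TATAAA, the TATA box.
Dhrs9 (chr2:69380212-69380511): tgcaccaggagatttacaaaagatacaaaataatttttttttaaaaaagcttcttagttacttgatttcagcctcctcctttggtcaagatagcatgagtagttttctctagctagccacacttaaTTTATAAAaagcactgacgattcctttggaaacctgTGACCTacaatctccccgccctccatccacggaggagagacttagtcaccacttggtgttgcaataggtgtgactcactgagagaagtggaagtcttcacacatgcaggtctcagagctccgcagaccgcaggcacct
Adh7 (chr3:138217523-138217822): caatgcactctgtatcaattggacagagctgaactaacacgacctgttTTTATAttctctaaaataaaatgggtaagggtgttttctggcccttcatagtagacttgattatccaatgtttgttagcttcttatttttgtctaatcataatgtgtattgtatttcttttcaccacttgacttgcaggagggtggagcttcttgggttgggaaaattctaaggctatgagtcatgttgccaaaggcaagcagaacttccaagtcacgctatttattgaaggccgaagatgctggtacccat
Adh1 (chr3:138277335-138277634): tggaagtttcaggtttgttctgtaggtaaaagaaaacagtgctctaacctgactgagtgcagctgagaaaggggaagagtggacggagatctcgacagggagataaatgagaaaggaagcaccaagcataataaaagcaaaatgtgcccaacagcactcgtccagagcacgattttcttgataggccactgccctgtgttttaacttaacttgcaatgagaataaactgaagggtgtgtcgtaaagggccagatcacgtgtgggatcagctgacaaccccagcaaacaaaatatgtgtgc
Aldh1a1 (chr19:20492333-20492632): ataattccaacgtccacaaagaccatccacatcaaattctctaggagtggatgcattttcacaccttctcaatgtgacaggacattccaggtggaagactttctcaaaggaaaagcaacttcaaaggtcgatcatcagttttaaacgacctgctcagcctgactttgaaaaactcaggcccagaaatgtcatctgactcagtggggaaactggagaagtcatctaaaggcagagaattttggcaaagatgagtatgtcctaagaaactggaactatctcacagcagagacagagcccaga
The Dhrs9 window held a half-site on the minus strand at position -88 from the start site and 2 overlapping TATA matches at -124 and -122. The Adh7 window held a TATA match on the minus strand at -202, while the Adh1 window and both windows of Aldh1a1, which has a pair of listed start sites, held none of the 3 motifs. Of the Aldh1a1 windows only the one with the lower coordinates is printed, and the other begins at chr19:20601718. The promoter of Aldh1a2, at chr9:71215539-71215838, held an antioxidant response core at -112. Of 32851 mouse promoters of the same length, 16.3% held the half-site, 12.4% the antioxidant response core and 13.6% the TATA box, so each of these matches is common and none shows that a factor binds there.

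Of the 9 genes, Adh6b had the largest genotype difference at 0 h, 15 min and 2 h, and at 24 h Dhrs9 differed more, without a call. Its main probe set read 7.54, 7.64 and 7.33 in cub ears at 0 h, against 9.02, 9.22 and 9.08 in wild type ears. At 15 min it read 7.55 and 7.19 in cub, against 9.23, 8.87 and 8.89 in wild type. Every cub array lay more than a doubling below every wild type array at both times. At 2 h the gene read 7.87, 8.24 and 8.06 in cub, against 9.22, 9.13 and 9.19 in wild type. At 24 h it read 8.45, 8.69 and 8.47 in cub, against 8.90, 8.85 and 9.16 in wild type. The groups did not overlap at any of the 4 times, but the gap narrowed from 2 h on as the cub arrays rose while the wild type arrays stayed between 8.85 and 9.23.

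The cub minus wild type difference of Adh6b was -1.60 at 0 h. The later arrays were not those of the 0 h difference named for the choice. There, limma with Benjamini-Hochberg adjustment over all genes gave a difference of -1.63 ± 0.13 at 15 min (standard error, adjusted p = 1.01e-06). The difference was -1.12 ± 0.12 at 2 h (adjusted p = 2.08e-05) and -0.43 ± 0.12 at 24 h (adjusted p = 0.0323). The 24 h call did not hold in 7 alternatives, with adjusted p of 0.117 and 0.139 without the first or the third cub array and 0.0511 and 0.152 without the first or the third wild type array. Averaged over the 3 wounded times, the level in cub was 0.479 times that in wild type (-1.06 ± 0.07, adjusted p = 9.13e-09). Genes and tests were chosen with earlier results of these data known, so these p values are not independent evidence for the choice.

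Within genotypes, Adh6b differed between 24 h and 0 h by 1.03 in cub and by -0.14 in wild type, a difference of 1.17 between the genotypes. Taking 15 min in place of 0 h as the baseline, a comparison added after the data were seen, compares none of the arrays that chose the gene, although they still enter the shared estimate of the spread. On that baseline Adh6b rose by 1.17 ± 0.13 by 24 h in cub (adjusted p = 1.97e-07) and by 0.69 by 2 h (adjusted p = 0.00133). In wild type it differed by -0.03 at 24 h (adjusted p = 0.9). The cub change exceeded the wild type change by 1.19 ± 0.18 at 24 h (limma interaction, adjusted p = 0.00209), while at 2 h the difference of 0.50 did not pass the test (adjusted p = 0.11). On this baseline limma called 17.6% of all genes at 2 h and 48.8% at 24 h in cub, and 5.71% at 2 h and 43.5% at 24 h in wild type. For the difference of these changes it called 1.64% at 2 h and 0.873% at 24 h.

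The 2 probe sets annotated to Adh6b did not read alike. Probe set 10496457 gave the values above, and probe set 10496455 lay between 4.31 and 4.79 on all 23 arrays. Tested over every row, probe set 10496455 differed between cub and wild type by -0.23 at 0 h (adjusted p = 0.0901), 0.06 at 15 min, 0.03 at 2 h and 0.08 at 24 h. The genotype difference therefore rests on 1 probe set. Adh6a, Adh6b and the pseudogene Adh6-ps1 are close copies that can share probe sequence, so which copy a signal comes from is uncertain. Adh6-ps1 differed by -0.01 at 0 h and 0.22 at 24 h (adjusted p = 0.971 and 0.114 over every row).

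Adh6a, the neighbouring gene of the same class and not one of the 9, differed from Adh6b in its genotype differences at 0 h and 24 h. The 24 h arrays read 10.56, 10.64 and 10.44 in cub, against 9.69, 9.57 and 9.81 in wild type. At 0 h it read 9.24, 9.18 and 9.08 in cub, against 9.09, 9.18 and 9.20 in wild type. Its levels thus overlapped between genotypes at 0 h and stood apart at 24 h, when it was higher in cub by 0.86 ± 0.13 (adjusted p = 0.000548), the direction opposite to Adh6b. It rose by 1.38 from 0 h in cub (adjusted p = 1.1e-08) and by 0.53 in wild type (adjusted p = 0.0018). The difference of these changes was 0.85 ± 0.18 (adjusted p = 0.0275), a call lost in 9 alternatives with adjusted p up to 0.0842 and, among single arrays, without the second or the third cub array at 0 h, the first at 24 h, the second or the third wild type array at 0 h, or the first or second at 24 h. From 15 min to 24 h both copies rose in cub, Adh6a by 1.53 (adjusted p = 1.66e-08) and Adh6b by 1.17. On that baseline the cub change of Adh6a exceeded its wild type change by 1.04 ± 0.19 (limma interaction, adjusted p = 0.014), against 1.19 for Adh6b. The larger change in cub from 15 min was thus not particular to Adh6b.

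**Figure D1:**
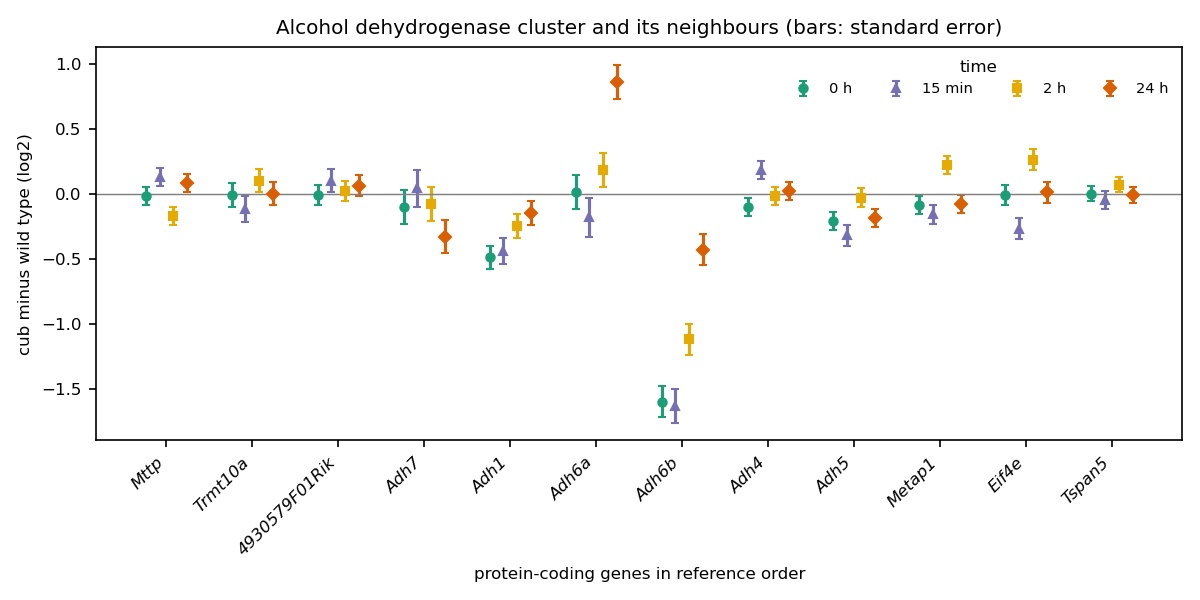
Cub minus wild type differences on the log2 scale (vertical axis) for the alcohol dehydrogenase genes of chromosome 3 and 3 protein-coding neighbours on each side, in the order of the GRCm38.p6 gene table, at 0 h, 15 min, 2 h and 24 h. Points are limma estimates and bars their standard error. Adh6b stands at -1.60 and -1.63 at 0 h and 15 min, Adh6a at 0.86 at 24 h, and the 6 flanking genes lie between -0.27 and 0.26.

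The alcohol dehydrogenases Adh7, Adh1, Adh6a, Adh6b, Adh4 and Adh5 follow each other on chromosome 3. The 3 genes on either side, Mttp, Trmt10a and 4930579F01Rik before Adh7 and Metap1, Eif4e and Tspan5 after Adh5, differed between genotypes by -0.27 to 0.26 over the 4 times, and limma called none of them (at an unadjusted p under 0.05, 2 at 15 min and 3 at 2 h). Adh4 lay at group means of 4.39 to 4.62 with no call. Adh5, the glutathione-dependent formaldehyde dehydrogenase found in most tissues, was lower in cub over the wounded times by 0.18 ± 0.04 on the log2 scale (-0.18, adjusted p = 0.007). Within the cluster the direction thus differed from gene to gene, as the plot of the alcohol dehydrogenase cluster shows.

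Adh1, the class I enzyme that oxidizes ethanol and retinol, was lower in cub before and early after the punch. At 0 h it read 10.47, 10.32 and 10.42 in cub, against 10.86, 10.80 and 11.01 in wild type. At 15 min it read 10.48 and 10.57 in cub, against 10.87, 11.01 and 11.02 in wild type. All cub arrays lay below all wild type arrays at these times and also at 2 h. The difference was -0.49 ± 0.09 at 0 h (adjusted p = 0.00234), and it kept its call in all 14 alternatives. It was -0.44 ± 0.10 at 15 min (adjusted p = 0.0176), a call lost in 4 alternatives: adjusted p was 0.0993 without the cub array of replicate number 3, which left 1 cub array assumed to vary like the other groups, 0.0518 and 0.0726 without the second or the third wild type array, and 0.0712 when only these groups were fitted. At 2 h it was -0.25 (adjusted p = 0.106), and over the 3 wounded times -0.28 ± 0.05 (adjusted p = 0.00147).

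By 24 h Adh1 fell in both genotypes. The arrays read 9.77, 9.99 and 9.79 in cub and 9.87, 10.20 and 9.93 in wild type, so the genotypes overlapped. The change from 0 h was -0.55 ± 0.09 in cub (adjusted p = 1.28e-05) and -0.89 ± 0.09 in wild type (adjusted p = 2.29e-08). The difference between these changes was 0.34 ± 0.12 and did not pass the test (adjusted p = 0.247). Between 0 h and 2 h Adh1 rose by 0.29 ± 0.09 in cub (adjusted p = 0.0315), but this call was lost in 8 alternatives, among them 15 min as the baseline (0.17, adjusted p = 0.232). Adjusted p was 0.12 and 0.0701 without the second or the third cub array at 0 h, and 0.162 and 0.055 without the first or the third at 2 h.

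Adh7, the class IV enzyme of epithelia with high activity toward retinol, showed no called genotype difference and fell in both genotypes by 24 h. Before 24 h its arrays lay between 11.07 and 11.36 in both genotypes together. At 24 h they read 9.66, 10.34 and 9.60 in cub, against 10.04, 10.35 and 10.19 in wild type. No 24 h array reached the earlier range, and the second cub array stood above the other cub arrays. The second wild type array was also the highest of its group. The change from 0 h was -1.26 ± 0.13 in cub (adjusted p = 3.03e-08) and -1.04 ± 0.13 in wild type (adjusted p = 6.68e-07). Cub minus wild type at 24 h was -0.33 ± 0.13 (adjusted p = 0.148). Without the second cub array it was -0.56 (adjusted p = 0.00028), and the difference of the changes was then -0.46 (adjusted p = 0.0391) in place of -0.22 (adjusted p = 0.739), so 1 library decides both calls.

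**Figure D2:**
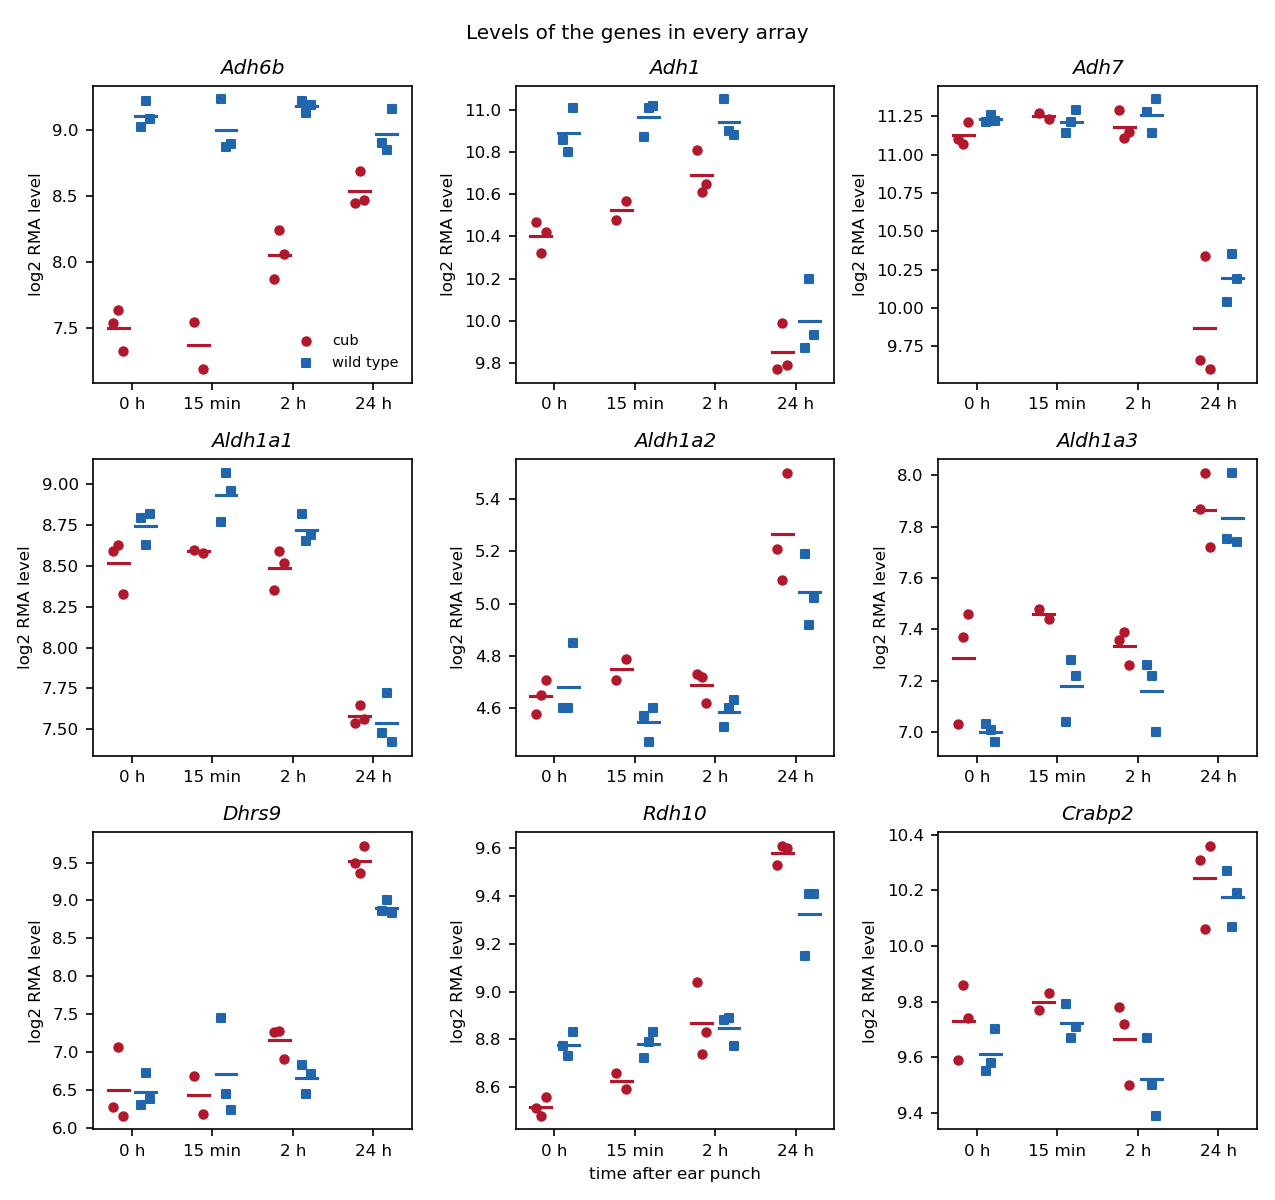
Log2 RMA level (vertical axis, a scale of its own in each panel) of the 9 genes on every array by time after the ear punch, with time as categories. Circles are cub arrays and squares wild type arrays (3 per group, 2 for cub at 15 min), and short lines are group means. Adh6b separates the genotypes at every time, while Dhrs9 and Rdh10 are higher and Adh1, Adh7 and Aldh1a1 lower at 24 h in both genotypes.

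Among the short-chain dehydrogenases, Dhrs9, an enzyme that oxidizes retinol and some steroids, rose most of the 9 genes. At 24 h it read 9.50, 9.36 and 9.72 in cub, against 6.28, 7.06 and 6.16 in cub at 0 h. In wild type the 24 h arrays averaged 8.90 ± 0.09 (SD, n = 3) with a lowest value of 8.83, against 6.30, 6.72 and 6.38 at 0 h. The 24 h arrays stood apart from all earlier arrays in both genotypes, and every cub array exceeded every wild type array at 24 h. The level at 24 h was 8.15 times that at 0 h in cub (3.03 ± 0.24, adjusted p = 1.03e-09) and 5.39 times in wild type (2.43 ± 0.24, adjusted p = 4.02e-08). The difference of the changes, 0.60 ± 0.34, did not pass the test (adjusted p = 0.572).

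At 2 h Dhrs9 read 7.27, 7.28 and 6.91 in cub and 6.83, 6.44 and 6.71 in wild type. Cub arrays were all above wild type arrays there, but neither the genotype difference of 0.49 ± 0.24 (adjusted p = 0.314) nor the change from 0 h in cub of 0.65 ± 0.24 (adjusted p = 0.0909) passed the test. Without the second cub array at 0 h, which read 7.06, the change from 0 h in cub was 0.93 (adjusted p = 0.0146). Cub minus wild type at 24 h was 0.63 ± 0.24 (adjusted p = 0.147), and 0.63 with adjusted p = 0.0249 when only the arrays of those groups were fitted.

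Rdh10, the dehydrogenase needed for most retinal synthesis in mouse embryos, rose further in cub than in wild type. Its 24 h levels were 9.53, 9.61 and 9.60 in cub, against 8.51, 8.48 and 8.56 in cub at 0 h. In wild type it read 9.15, 9.41 and 9.41 at 24 h, against 8.77, 8.73 and 8.83 at 0 h. The cub arrays were thus all below the wild type arrays at 0 h and all above them at 24 h. The change was 1.06 ± 0.07 in cub (adjusted p = 9.63e-11) and 0.55 ± 0.07 in wild type (adjusted p = 2.36e-06). The cub change exceeded the wild type change by 0.52 ± 0.10 (limma interaction, adjusted p = 0.0166).

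The Rdh10 interaction was lost without the second cub array at 0 h (adjusted p = 0.0518), without the third wild type array at 0 h (adjusted p = 0.0509) and with 15 min as the baseline (0.41, adjusted p = 0.0805). The genotype difference was -0.26 ± 0.07 at 0 h (adjusted p = 0.0415) and 0.26 ± 0.07 at 24 h (adjusted p = 0.0418). The 0 h call was lost in 10 alternatives, including without any 1 of the 6 arrays (adjusted p 0.0612 to 0.168). The 24 h call was lost in 9, including without any 1 of the 3 cub arrays (adjusted p 0.0631 to 0.147) or without the first wild type array (adjusted p = 0.207). Rdh10 already rose by 2 h in cub, by 0.35 ± 0.07 (adjusted p = 0.00244), where the wild type change was 0.07 (adjusted p = 0.71). The difference of the 2 h changes was 0.28 ± 0.10 (adjusted p = 0.321).

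The retinal dehydrogenases did not move together. Aldh1a1, the form with the broadest expression in adult tissues, fell. At 24 h it read 7.54, 7.65 and 7.56 in cub, against 8.59, 8.63 and 8.33 in cub at 0 h. In wild type it read 7.48, 7.72 and 7.42 at 24 h, against 8.79, 8.63 and 8.82 at 0 h. All 24 h arrays were below all earlier ones, by -0.93 ± 0.09 in cub (adjusted p = 2.66e-08) and by -1.21 ± 0.09 in wild type (adjusted p = 8.23e-10). The 15 min and 2 h arrays of cub, from 8.35 to 8.60, all lay below those of wild type, from 8.65 to 9.07. Averaged over the wounded times the genotype difference was -0.18 ± 0.06 (adjusted p = 0.0456), a call lost in 13 alternatives, with adjusted p up to 0.113. Among them it was lost without either cub array at 15 min, without the first or the third cub array at 2 h or 24 h, without the second or the third wild type array at 15 min, without the first or the third at 2 h and without the second at 24 h.

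Aldh1a3, the form of epithelia and sensory organs, rose. The 24 h arrays read 7.87, 8.01 and 7.72 in cub, against 7.03, 7.37 and 7.46 in cub at 0 h. In wild type it read 7.75, 8.01 and 7.74 at 24 h, against 7.03, 7.01 and 6.96 at 0 h. The genotypes covered nearly the same range at 24 h, and at 0 h only the first cub array lay within the wild type range. The change was 0.58 ± 0.10 in cub (adjusted p = 5.44e-05) and 0.83 ± 0.10 in wild type (adjusted p = 6.38e-07), with a difference of the changes of -0.25 ± 0.14 (adjusted p = 0.558). Cub minus wild type at 0 h was 0.29 ± 0.10 (adjusted p = 0.109), and 0.41 (adjusted p = 0.018) without the first cub array.

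Aldh1a2, the form that makes most retinoic acid in the mouse embryo's trunk, rose by 24 h, and every group mean of its probe set was below 6. At 24 h it read 5.21, 5.09 and 5.50 in cub and 5.19, 4.92 and 5.02 in wild type. At 0 h it read 4.58, 4.65 and 4.71 in cub and 4.60, 4.60 and 4.85 in wild type. All 24 h arrays exceeded all 0 h arrays, by 0.62 ± 0.09 in cub (adjusted p = 4.67e-06) and 0.36 ± 0.09 in wild type (adjusted p = 0.00209). At such low levels the scale is compressed, so these changes may understate those in RNA. The genotype difference over the wounded times was 0.18 ± 0.05 (adjusted p = 0.0384), lost in 14 alternatives with adjusted p up to 0.119. Single arrays that ended the call were the cub replicates numbered 3 at 15 min, 1 and 2 at 2 h and 3 at 24 h, and the wild type replicates 1 and 2 at 15 min, 1 and 2 at 2 h and 2 and 3 at 24 h. At 24 h alone, a genotype difference was called only without the second cub array (0.31, adjusted p = 0.0449).

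Crabp2, the binding protein that delivers retinoic acid to its nuclear receptors, rose in both genotypes. Levels at 24 h were 10.31, 10.06 and 10.36 in cub, against 9.59, 9.86 and 9.74 in cub at 0 h. In wild type it read 10.27, 10.07 and 10.19 at 24 h, against 9.55, 9.58 and 9.70 at 0 h. The 24 h and 0 h arrays did not overlap within either genotype. The change was 0.51 ± 0.09 in cub (adjusted p = 6.54e-05) and 0.57 ± 0.09 in wild type (adjusted p = 2.44e-05). The difference of the changes was -0.05 ± 0.13 (adjusted p = 0.948), and no genotype difference passed the test at any time.

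**Figure D3:**
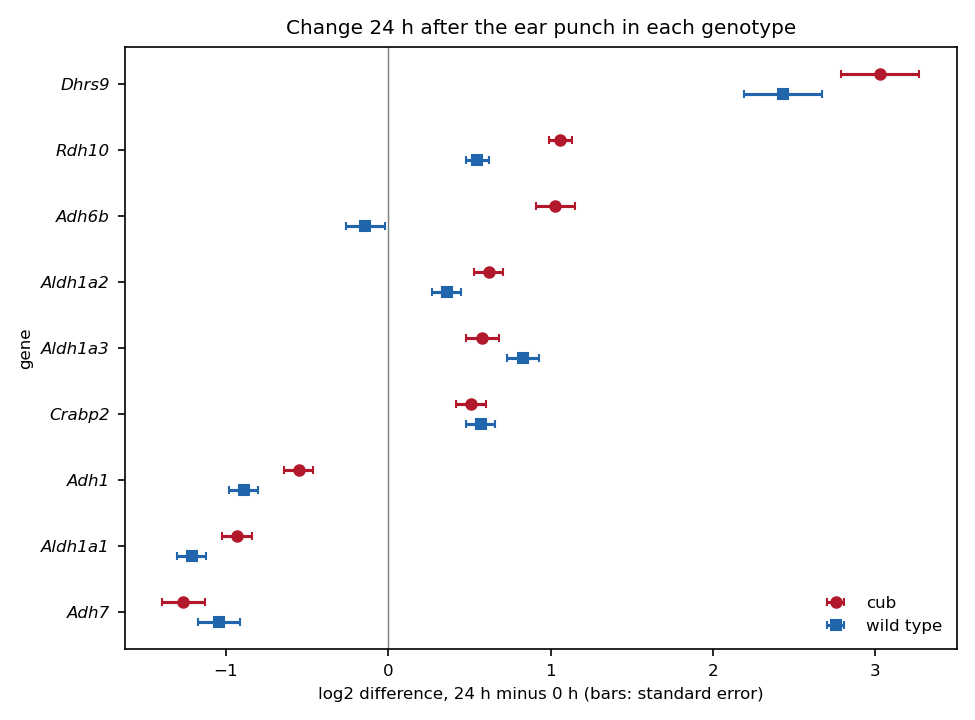
Log2 difference between 24 h and 0 h (horizontal axis) for the 9 genes in cub (circles) and wild type (squares), ordered by the cub value. Points are limma estimates and bars their standard error. Dhrs9 stands at 3.03 in cub and 2.43 in wild type, Adh7 at -1.26 and -1.04 in the same order of genotypes, and Adh6b at 1.03 in cub and -0.14 in wild type.

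Counts of wounding calls cover the 8 genes other than Adh6b, whose changes from 0 h carry no test, and most calls came at 24 h. At 15 min none was called in cub or in wild type, where limma called 0.0251% of all genes in cub and 0.0351% in wild type, and none had an unadjusted p under 0.05 in either. At 2 h 2 genes were higher in cub (Adh1 and Rdh10; 7.66% of all genes called higher) and none was called in wild type (7.97%; none at an unadjusted p under 0.05). At 24 h all 8 were called in cub and in wild type, in each 5 higher and 3 lower. Of all genes, 21.1% were called higher and 24.9% lower in cub, and 20.5% higher and 22.4% lower in wild type. The median absolute change was 0.78 in cub and 0.86 in wild type for the 8 genes, against 0.16 and 0.15 in cub and wild type for all genes. Because the genes were put together with results of these arrays known, nothing is read from these shares.

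Between genotypes, 2 of the 8 genes other than Adh6b were lower in cub at 0 h (Adh1 and Rdh10; 1.93% of all genes called lower). Of all 9 genes, 2 were lower at 15 min (Adh6b and Adh1; 1.88%) and 1 at 2 h (Adh6b; 0.577%). At 24 h Adh6b was lower (3.44% of all genes) and Rdh10 higher (2.24%). Over the wounded times Adh6b, Adh1 and Aldh1a1 were lower (4.76%) and Aldh1a2 higher (5.86%). The difference of wounding changes was called for none at 15 min (0% of all genes; none at an unadjusted p under 0.05) or 2 h (0.130%; 1 at an unadjusted p under 0.05) and for Rdh10, higher in cub, at 24 h (0.256% of all genes called higher), again without Adh6b. The genotype arrays did not overlap for 2 of the 8 other genes at 0 h (22.8% of all genes) and, with Adh6b, for 6 of 9 at 15 min (38.0%), 4 at 2 h (20.9%) and 3 at 24 h (18.3%). The 15 min count has only 2 cub arrays behind it, with which arrays separate more often, as the share of all genes shows.

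**Figure D4:**
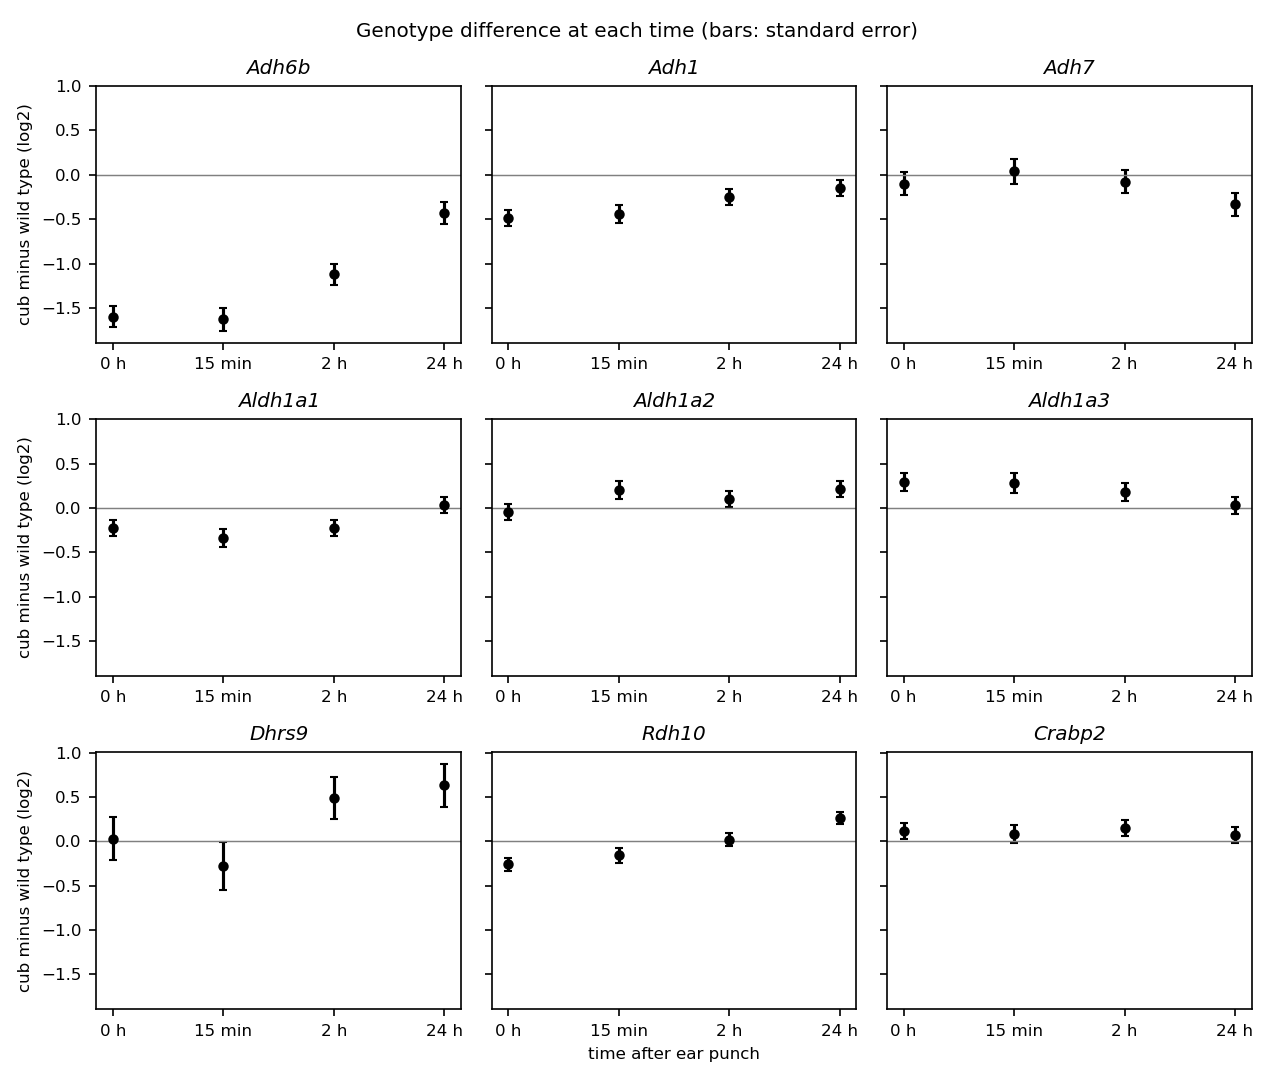
Cub minus wild type difference on the log2 scale (vertical axis, shared by all panels) at each time after the ear punch for the 9 genes, with time as categories. Points are limma estimates and bars their standard error. Adh6b runs from -1.60 at 0 h to -0.43 at 24 h, Rdh10 from -0.26 to 0.26, and Crabp2 lies between 0.07 and 0.15.

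Several of the genes varied together over the 23 arrays. Adh1, Adh7 and Aldh1a1 correlated with each other at r = 0.89 to 0.93, and Dhrs9 with Rdh10 at r = 0.91. Adh7 and Dhrs9 ran opposite at r = -0.93. Over the 17 arrays without the 24 h groups these values were r = 0.12 to 0.67 among Adh1, Adh7 and Aldh1a1, r = 0.25 for Dhrs9 with Rdh10 and r = -0.20 for Adh7 with Dhrs9. Adh6b correlated with the other 8 at r = -0.13 to 0.36 over all arrays, and with Adh1 at r = 0.86 without the 24 h groups. The arrays share their group means, so these values mix differences between groups with variation within groups, and they carry no test. Among the 13741 genes that reached a mean of 6 in some group, those most like Adh6b over the 8 group means were Ccl25 (r = 0.986), Lrrc40 (r = 0.958) and Cyp17a1 (r = 0.952). Those most like Rdh10 were Pak2 (r = 0.989), Eea1 and Ier5l (r = 0.987 each), and those most like Adh7 were Ddr1 (r = 0.998), Mfap3l and Use1 (r = 0.997 each). Such values were picked as the highest of many over only 8 means, so high r comes with the search and carries no test. The means of Adh6b include the 0 h levels that chose it.

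Around the 9 genes, the uptake, binding and storage list (14 genes tested) changed at 24 h in both directions. In cub 4 genes rose and 8 fell (21.1% of all genes called higher and 24.9% lower). In wild type 4 rose and 4 fell (20.5% of all genes called higher and 22.4% lower). Rbp2, a cellular retinol binding protein best known from gut, read 9.62, 8.76 and 9.59 in cub at 24 h, against 6.84, 7.30 and 6.95 in cub at 0 h. It rose by 2.29 ± 0.22 in cub (adjusted p = 1.37e-08) and 2.32 ± 0.22 in wild type (adjusted p = 1.59e-08). Crabp1, the other cellular retinoic acid binding protein, rose by 1.15 in each genotype. Rbp4, the plasma carrier of retinol, fell by 1.08 in cub and by 0.72 in wild type on the log2 scale. Stra6, a receptor for that carrier, fell by 0.41 in cub (-0.41, adjusted p = 0.0067; 0.0506 without the second cub array at 0 h), and its wild type change was -0.25 (adjusted p = 0.0984).

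Lrat, which stores retinol as esters, had group means of only 5.37 to 6.02, below 6 in every wild type group. Such low levels limit what can be measured. At 0 h Lrat read 5.84, 6.08 and 6.11 in cub, against 5.66, 5.22 and 5.39 in wild type. The groups did not overlap, and cub was higher by 0.59 ± 0.10 (adjusted p = 0.00234). By 24 h Lrat fell by 0.64 in cub (-0.64, adjusted p = 2.31e-05), while the wild type change was 0.06. The difference of the changes, -0.70 ± 0.15 (adjusted p = 0.023), was lost in 10 alternatives with adjusted p up to 0.195, among them without the second or the third cub or wild type array at 0 h, the third cub array at 24 h or the second wild type array at 24 h. Scarb1, a receptor that takes up lipids and carotenoids, was higher in cub by 0.40 at 0 h (adjusted p = 0.0151; 0.113 without the second cub array and 0.0578 without the second wild type array) and by 0.51 at 2 h (adjusted p = 0.00267).

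Of the 18 other retinol and retinal oxidoreductases tested, 3 rose and 8 fell at 24 h in cub (21.1% of all genes called higher and 24.9% lower). In wild type 4 rose and 7 fell (20.5% of all genes called higher and 22.4% lower). Akr1b8, an aldo-keto reductase that reduces aldehydes, read 10.72, 10.65 and 10.72 in cub at 24 h, against 7.33, 7.76 and 7.46 in cub at 0 h. It rose by 3.18 ± 0.10 in cub (adjusted p = 4.7e-16) and by 2.93 ± 0.10 in wild type (adjusted p = 2.53e-15). Dhrs3, which reduces retinal back to retinol, fell by 1.14 in cub and by 0.78 in wild type on the log2 scale. Sdr16c5, an epidermal retinol dehydrogenase, fell by 1.31 in cub and by 1.02 in wild type on that scale, and Rdh16 rose by 1.16 in cub and 0.84 in wild type. At 24 h 5 of the 18 were lower in cub than in wild type (3.44% of all genes called lower). Among them were Sdr16c6 (-0.48 ± 0.09, adjusted p = 0.00442, and 0.0584 when only those groups were fitted), Sdr16c5 (-0.42 ± 0.07, adjusted p = 0.000876) and Rdh9 (-0.37 ± 0.09, adjusted p = 0.0194). The Rdh9 call was lost without the first or the third cub array (adjusted p = 0.0666 and 0.137) or the second wild type array (adjusted p = 0.102). No called gene of the 18 was higher at 24 h, where 3 were higher at an unadjusted p under 0.05.

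Of 17 other aldehyde dehydrogenases, 3 rose and 9 fell at 24 h in cub (21.1% of all genes called higher and 24.9% lower). In wild type 4 rose and 9 fell (20.5% of all genes called higher and 22.4% lower). Aldh6a1, a mitochondrial enzyme of valine breakdown, fell by 1.34 in cub and by 1.31 in wild type on the log2 scale. Aldh1a7, a close relative of Aldh1a1 that could share its probes, fell by 0.86 in cub and by 1.09 in wild type on that scale. Limma called no gene of this list between genotypes at any single time, and 8 had an unadjusted p under 0.05 at 24 h. Of the 4 other alcohol dehydrogenases, Adh6a and Adh5 rose and Adhfe1 fell at 24 h in both genotypes.

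For breakdown, Cyp26a1 and Cyp26b1, the main retinoic acid hydroxylases, passed no test: at 24 h Cyp26b1 averaged 9.14 in cub and 9.23 in wild type, against 9.03 in cub and 9.04 in wild type at 0 h. Cyp2s1, the only one of the 4 breakdown genes called at 24 h, fell by 0.58 in cub and by 0.55 in wild type on the log2 scale. Of 11 receptors and cofactors, 2 rose and 6 fell at 24 h in cub (21.1% of all genes called higher and 24.9% lower). In wild type 2 rose and 5 fell (20.5% of all genes called higher and 22.4% lower). Rarg, the main retinoic acid receptor of epidermis, fell by 0.69 in cub (-0.69, adjusted p = 3.81e-09) and by 0.62 in wild type (-0.62, adjusted p = 2.66e-08). Rara changed by 0.10 in cub (adjusted p = 0.206) and by 0.16 in wild type (adjusted p = 0.0455, lost in 11 alternatives with adjusted p up to 0.292). Ppard, a fatty acid receptor reported to take up retinoic acid as a ligand, rose by 1.19 in cub and 0.98 in wild type.

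Of 19 genes that retinoic acid induces in other systems, 3 rose at 24 h in both genotypes. The share of all genes called higher was 21.1% in cub and 20.5% in wild type, so this count is not above it. The 3 were Has3, which makes hyaluronan, by 4.17 in cub and 3.71 in wild type, the EGFR ligand Hbegf by 3.08 and 2.81 in cub and wild type, and the crosslinking enzyme Tgm2 by 1.16 and 1.31 in cub and wild type. In cub 8 of the 19 fell (24.9% of all genes called lower), and in wild type 5 (22.4%). Between genotypes 4 were higher and 1 lower in cub at 0 h (3.33% of all genes called higher and 1.93% lower). At 24 h 2 were higher and 2 lower (2.24% of all genes called higher and 3.44% lower). The lists were written with earlier results of these arrays known, so their counts describe the pathway and are no evidence of retinoic acid signalling.

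Markers of other cells also changed at 24 h. Beside their counts stand the shares of all genes called, 21.1% higher and 24.9% lower in cub. In wild type these shares were 20.5% higher and 22.4% lower. Of 12 neutrophil and macrophage markers 10 rose in each genotype, and their log2 summed level was 13.89 to 14.19 in cub and 13.54 to 13.90 in wild type at 24 h, against 12.28 to 12.74 in cub and 12.06 to 12.21 in wild type at 0 h. Of 17 sebaceous gland markers 12 fell in cub and 11 in wild type, with summed levels of 14.95 to 15.04 in cub and 15.03 to 15.26 in wild type at 24 h, against 15.28 to 15.39 in cub and 15.32 to 15.42 in wild type at 0 h. All 9 suprabasal keratinocyte markers fell in cub, and 5 fell and 1 rose in wild type. Their summed level was 15.22 to 15.27 in cub and 15.12 to 15.15 in wild type at 24 h, against 15.56 to 15.66 in cub and 15.24 to 15.37 in wild type at 0 h. All 9 adipocyte markers fell in cub and 8 in wild type, with summed levels of 11.84 to 12.01 in cub and 11.39 to 11.96 in wild type at 24 h, against 12.23 to 13.20 in cub and 12.22 to 12.32 in wild type at 0 h.

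Summed levels of skeletal muscle, ear cartilage and hair follicle markers were also lower at 24 h than at 0 h in both genotypes. The shares of all genes called, given above, apply to the counts here too. All 10 skeletal muscle markers fell in cub and 9 in wild type, with summed levels of 13.90 to 14.15 in cub and 13.59 to 13.96 in wild type at 24 h, against 14.61 to 14.68 in cub and 14.34 to 14.53 in wild type at 0 h. Of 10 ear cartilage markers 6 fell in cub and 8 in wild type, with summed levels of 11.15 to 11.26 in cub and 11.19 to 11.37 in wild type at 24 h, against 11.81 to 11.89 in cub and 11.86 to 12.10 in wild type at 0 h. Of 16 hair follicle markers 6 fell in cub, and 4 fell and 1 rose in wild type. Their summed level was 11.14 to 11.19 in cub and 11.41 to 11.53 in wild type at 24 h, against 11.86 to 12.09 in cub and 11.76 to 11.93 in wild type at 0 h. Of 12 fibroblast and matrix markers 2 rose and 7 fell in cub, and 2 rose and 6 fell in wild type. Of 8 basal keratinocyte markers 3 rose and 4 fell in cub, and 3 rose and 2 fell in wild type, and of 8 endothelial markers 4 fell in cub, and 3 rose and 3 fell in wild type. The part of these shifts in the changes of the 9 genes was not tested.

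At 0 h, where Adh6b, Adh1 and Rdh10 were lower in cub, 4 of 8 endothelial markers were higher (3.33% of all genes were called higher), with summed levels of 11.67 to 11.89 in cub against 11.35 to 11.47 in wild type. Suprabasal markers were also higher there, 4 of 9, with 1 lower (1.93% of all genes called lower). Of 12 neutrophil and macrophage markers 3 were higher in cub, and of 10 skeletal muscle markers 1, and the summed levels of both lists, given above, did not overlap between genotypes at 0 h. Of 12 fibroblast and matrix markers 2 were higher at 0 h and 5 at 24 h (2.24% of all genes called higher at 24 h). Limma called no basal keratinocyte marker at 0 h (2 of 8 at an unadjusted p under 0.05), at summed levels of 14.69 to 14.73 in cub and 14.76 to 14.78 in wild type. At 24 h, 6 of the 17 sebaceous markers were lower in cub than in wild type (3.44% of all genes called lower). Sdr16c5, Sdr16c6 and Rdh9 were lower in the same arrays. The summed sebaceous levels overlapped between genotypes, at 14.95 to 15.04 in cub and 15.03 to 15.26 in wild type. The summed hair follicle level was then lower in cub without overlap, with 1 of its 16 markers called. Other sums were higher in cub without overlap at 24 h. For suprabasal markers these were 15.22 to 15.27 in cub against 15.12 to 15.15 in wild type. For fibroblast and matrix markers they were 14.61 to 14.72 in cub against 14.47 to 14.59 in wild type. The part of these markers in the genotype differences was not tested.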

How the data were processed

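The authors deposited log2 values; the submitters' processing notes name RMA and Affymetrix Expression Console 1.1. The summarization level, annotation release and genome build of the array are not given in the sources used here. Of 35556 rows, 21789 carried 1 gene symbol, 1621 several and 12146 none; rows with several or none were left out. Platform symbols were updated through RefSeq's GRCm38.p6 gene table (21698 rows matched), used only for names and gene order, and for 999 genes with several rows the highest mean was kept, leaving 19938 genes. Groups came from the labels' genotype and time.

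A linear model (limma 3.58.1, R 4.3.3) gave each group a mean over all 23 arrays (15 residual and 5.61 prior degrees of freedom), in 14 comparisons: genotype at each time and over the wounded times, wounding within genotype, and their difference (interaction). Tests were two-sided, with Benjamini-Hochberg adjustment within a comparison and a threshold of 0.05. The code was tested on simulated data. The number of arrays limits the precision. The authors' R/maanova test was not run.

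Members, lists (198 of 213 genes tested) and tests were chosen with earlier results of these data known. Text names the 9 genes, the 3 largest called differences per list and comparison, a list of genes always named (Adh4, Adh5, Adh6a, Dhrs3, Cyp26a1, Cyp26b1, Rara, Rarb, Rarg, Lrat and Stra6), the cluster with 3 neighbours a side, and the 3 genes most alike; not all are printed. Other genes that illustrate a list were chosen after their values were seen. Alternatives were median-centring, quantile normalization, a minimum group mean of 6, every row, only the compared groups, the replicate block, no moderation, trend with robust moderation, each array left out, and, added after the data were seen, 15 min as the baseline.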

Additional observations from a re-analysis of the deposited data

Results flagged for a closer look

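Changes over time that differed between the genotypes by an interaction test were found for a pair of the 9 genes, on different baselines. Between 15 min and 24 h, both after the punch, Adh6b changed more in cub than in wild type. The difference was 1.19 ± 0.18 on the log2 scale (limma interaction, adjusted p = 0.00209). That baseline was chosen after the data were seen and has 2 cub arrays. On it Adh6a, not one of the 9, differed by 1.04 ± 0.19 (limma interaction, adjusted p = 0.014). The change of Rdh10 between 0 h and 24 h was larger in cub than in wild type by 0.52 ± 0.10 (limma interaction, adjusted p = 0.0166), and this call was lost without the second cub array or the third wild type array at 0 h and with 15 min as the baseline.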

How the results depend on the processing

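Counts of genes called changed under some alternatives, and the cause was not tested. For cub against wild type at 0 h (8 genes, without Adh6b, as in all counts against 0 h) the count was 1 in place of 2 under median-centring, with every row tested, with the replicate block and without moderation. For 2 h against 0 h in cub it was 1 in place of 2 under quantile normalization, with every row tested, without moderation and with 15 min as the baseline. For cub against wild type at 15 min the count was 1 in place of 2 when only those groups were fitted. For 24 h it was 1 in place of 2 under median-centring, with only those groups and with the replicate block, and 0 with every row tested or without moderation. Over the wounded times it was 2 in place of 4 with every row or without moderation. The 24 h interaction count was 0 in place of 1 with 15 min as the baseline. Leaving out each array gave 1 to 2 genes at 0 h, 1 to 2 at 15 min, 1 at 2 h, 0 to 3 at 24 h and 2 to 5 over the wounded times. For wounding it gave 0 at 15 min in both genotypes, 1 to 2 in cub and 0 in wild type at 2 h, and 8 in both genotypes at 24 h. The interaction counts were 0 at 15 min and 2 h and 0 to 2 at 24 h.

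Of 2038 recomputed single values of the 9 genes, 68 lost a call, 10 gained one and none with a call turned its sign. The 24 h wounding calls of the 8 genes tested against 0 h held in every alternative run in both genotypes. Replicate numbers did not pair arrays consistently: deviations of same-numbered arrays at the same time correlated at -0.30 to 0.26 (11 pairs, median 0.07, 5 above 0.1). Differently numbered arrays of different groups had a median of 0.01, with 47 of 154 pairs above 0.1. At 24 h the second array was the highest of its group in both genotypes for Adh1, Adh7, Aldh1a1 and Aldh1a3. For Aldh1a2 and Crabp2 it was the lowest in both, and for Adh6b and Dhrs9 the genotypes went opposite ways. Whether same-numbered arrays shared a batch was not tested. With the replicate block the Rdh10 genotype calls were lost (adjusted p = 0.0599 at 0 h and 0.0596 at 24 h), and no other call of the 9 genes was. Aldh1a2 gave no value under the minimum group mean of 6. Levels near the lower end of the array's range, such as those of Aldh1a2 and the second Adh6b probe set, limit what can be measured there.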
